A study of Mus musculus with 6 samples.

Results

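The matrix metalloproteinases (MMPs) and their tissue inhibitors (TIMPs) were followed in the 4T1 line, mammary carcinoma cells that came from a BALB/c mouse. The members are 10 genes taken by their symbols: Mmp3, Mmp9, Mmp10, Mmp13, Mmp14, Mmp15 and Mmp19, with the inhibitors Timp1, Timp2 and Timp3. They are 10 of the 54146 genes with a row in the count tables, and 8 of them had enough reads to be among the 13755 genes tested. Cells of 3 groups were sequenced, with 2 libraries each: KO clone 1, KO clone 2 and wild-type (WT) cells. Both clones are Mki67-/-, knockouts of the gene of the proliferation antigen Ki-67. All groups had the same serum-containing medium and no other treatment is given in the labels. Each knockout group is a single clone, so the loss of Ki-67 and differences that arose while a clone was derived cannot be told apart.

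MMPs are zinc-dependent endopeptidases that cleave collagens, laminins and other matrix proteins, and also release growth factors and cytokines held in the matrix or on cell surfaces. They are made as inactive precursors, in which a cysteine of the propeptide occupies the catalytic zinc until the propeptide is cut away. TIMPs bind the active enzymes and block them, and TIMP2 additionally links proMMP2 to the membrane-type enzyme MMP14 for its activation. In mammary tumours these enzymes come from carcinoma cells and from stromal and immune cells, and they have been studied mainly for their part in invasion and metastasis.

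The zinc site is what makes the MMP members one family, so its codons are shown for the 4 MMP members that rose in KO clone 2 and for the membrane-type Mmp14. The sequences are from GENCODE M21 transcripts on GRCm38, 5′ to 3′, and capitals mark the codons of the 3 zinc-binding histidines.
Mmp9: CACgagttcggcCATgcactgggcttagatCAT
Mmp3: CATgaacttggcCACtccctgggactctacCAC
Mmp10: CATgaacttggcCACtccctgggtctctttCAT
Mmp13: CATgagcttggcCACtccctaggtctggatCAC
Mmp14: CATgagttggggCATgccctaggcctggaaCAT
All 7 MMP members held this pattern of codons. The cysteine codon of the propeptide switch, in capitals here, was found in its usual context in 6 of the 7, and Mmp3 and Mmp10 were identical over it.
Mmp3: cccaggTGTggtgttcctgat
Mmp10: cccaggTGTggtgttcctgat
Mmp9: ccacgcTGTggtgtcccagac

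The promoters of Mmp3, Mmp10 and Mmp13 are shown because these genes lie in 1 cluster on chromosome 9 and were all highest in KO clone 2. RefSeq promoter entries (GRCm38.p6) matched 8 of the 10 members. There was none for Mmp9 or Mmp19, so their promoters were not searched. The stretches are the 250 bases before each RefSeq start on the plus strand: chr9:7445572-7445821 for Mmp3, chr9:7502092-7502341 for Mmp10 and chr9:7272264-7272513 for Mmp13. Capitals mark the AP-1 letters TGAGTCA, searched on both strands (TGACTCA on the reverse strand), and the TATA letters TATAAA, searched on the gene's strand.
Mmp3: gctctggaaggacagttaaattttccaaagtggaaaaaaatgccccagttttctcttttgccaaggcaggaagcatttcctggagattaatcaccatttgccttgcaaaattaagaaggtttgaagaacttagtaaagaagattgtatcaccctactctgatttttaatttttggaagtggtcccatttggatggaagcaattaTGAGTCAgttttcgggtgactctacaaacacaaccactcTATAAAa
Mmp10: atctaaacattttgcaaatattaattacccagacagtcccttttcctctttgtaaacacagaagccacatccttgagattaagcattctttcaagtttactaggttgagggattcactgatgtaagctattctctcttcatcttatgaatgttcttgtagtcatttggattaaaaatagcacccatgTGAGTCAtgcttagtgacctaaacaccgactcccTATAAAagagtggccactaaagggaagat
Mmp13: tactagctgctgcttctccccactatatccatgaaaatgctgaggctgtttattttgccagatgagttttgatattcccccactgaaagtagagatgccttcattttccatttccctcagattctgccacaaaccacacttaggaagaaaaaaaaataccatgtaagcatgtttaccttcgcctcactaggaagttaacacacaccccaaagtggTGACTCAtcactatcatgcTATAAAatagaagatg
The AP-1 letters began 46 bases before the start in Mmp3, 63 before it in Mmp10 and 35 before it, on the reverse strand, in Mmp13. The TATA letters began 7 bases before the start in Mmp3, 29 before it in Mmp10 and 16 before it in Mmp13, and the AP-1 and TATA letters did not overlap. No other of the 8 member promoters held either motif in its window of 250 bases before to 50 after the start. Among all 32851 promoter windows of that length, 5.2% held the AP-1 letters and 8.32% the TATA letters. The ETS letters AGGAAG, on both strands, were in 5 of the 8 member windows and in 35.4% of all windows. These matches describe the sequence and say nothing about binding in these cells.

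The libraries held 10428970 to 22658499 gene reads, and levels are given as CPM, read counts scaled to a common library total. Mki67 had 85.8 and 102.5 CPM in KO clone 1 and 39.9 and 52.75 CPM in KO clone 2, against 736 and 647 CPM in WT, so each library matched its label, although the labels do not say which part of the gene was altered. No label tells separate cultures from repeat preparations, so p-values cover only the differences between the 2 libraries of a group, technical ones included. Epithelial marker genes summed to 5728 to 5738 CPM in KO clone 1, 5733 to 6113 CPM in KO clone 2 and 3897 to 4499.8 CPM in WT, and 8 of the 10 were tested. For the mean of both clones, 4 were called higher (Krt18, Krt7, Krt14 and Epcam), where 26.5% of all genes were. Cldn4 was called lower (adjusted p = 5.33e-05 by edgeR), where 29.3% of all genes were. Cdh1 was called lower in KO clone 2 (adjusted p = 0.018) and not in KO clone 1 (adjusted p = 0.115), and Krt5 had 0 reads. Macrophage and neutrophil markers, whose cells are another source of MMP9 in tumours, summed to 4.81 to 5.33 CPM in KO clone 1 and 5.96 to 6.89 CPM in KO clone 2, against 11.6 to 16.6 CPM in WT, with Adgre1, S100a9 and Mpo at 0 reads. Of these 11 markers 2 were tested and they went opposite ways: Cd68 fell to 2.74 CPM in KO clone 1 and 2.82 CPM in KO clone 2, against 12.9 CPM in WT (both clones averaged, adjusted p = 1.18e-06 by edgeR), and Csf1r rose to 2.22 CPM in KO clone 1 and 3.12 CPM in KO clone 2, against 1.14 CPM in WT (adjusted p = 0.00163). The neutrophil marker S100a8 had 0 and 0 reads in KO clone 1 and 5 and 10 reads in KO clone 2, against 0 and 0 reads in WT. The part of such cells in the MMP levels was not tested. Fibroblast markers summed to 20.1 to 20.5 CPM in KO clone 1 and 15.9 to 17.1 CPM in KO clone 2, against 40.8 to 41.2 CPM in WT, with Col3a1, Lum and Thy1 at 0 reads. Of these 11 markers 2 were tested: Pdgfra averaged 14.4 CPM in KO clone 1 and 14.4 CPM in KO clone 2, against 39.2 CPM in WT (both clones averaged, adjusted p = 9.66e-08 by edgeR), and Postn averaged 5.67 CPM in KO clone 1, where it rose (adjusted p = 6.8e-05), and 1.86 CPM in KO clone 2 (adjusted p = 0.231), against 1.33 CPM in WT. Endothelial markers summed to at most 0.36 CPM in any library, with Cdh5 and Kdr at 0 reads.

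Of the 8 members tested, 7 differed between KO clone 1 and WT (edgeR quasi-likelihood test, adjusted p under 0.05), 4 of them higher and 3 lower. In that comparison 50.4% of all genes tested were called, 24.5% higher and 26% lower. In KO clone 2 against WT 7 members were called, 5 higher and 2 lower, where 53.1% of genes were called, 25.2% higher and 27.9% lower. For the mean of both clones against WT 8 members were called, 5 higher and 3 lower, where 55.8% of genes were called, 26.5% higher and 29.3% lower. Between KO clone 2 and KO clone 1, 6 members were called and all 6 were higher in KO clone 2, where 11.3% of all genes were called higher, 10.7% lower and 22% in either direction. The median log2 fold change of the tested members was 0.29 in KO clone 1 and 2.09 in KO clone 2, against -0.01 and -0.02 over all genes tested. The members were chosen with earlier results of these data known. Mmp13, among those called higher, passed the filter on low counts through the knockout libraries. These counts and medians are therefore descriptions and no support for a direction of the family. The comparisons with WT share the 2 WT libraries, so the values of both clones are given side by side and no likeness between them is drawn from that. These are bulk libraries, in which more cells with a transcript and more of it per cell cannot be told apart.

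**Figure D1:**
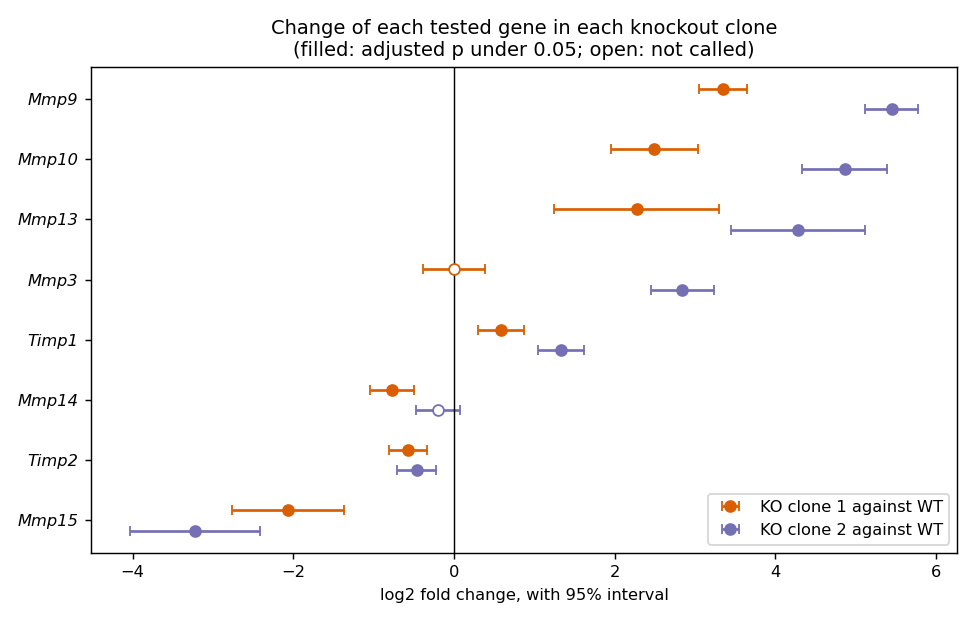
Log2 fold change of each of the 8 tested MMP and TIMP genes (rows) in KO clone 1 (orange) and KO clone 2 (violet) against WT, with the 95% interval of the edgeR fit as bars; filled points had an adjusted p under 0.05 and open points did not. Mmp9 lies farthest to the right at 3.35 in KO clone 1 and 5.45 in KO clone 2, Mmp15 farthest to the left at -2.07 and -3.22, and the open points are Mmp3 in KO clone 1 and Mmp14 in KO clone 2.

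Mmp9 encodes gelatinase B, which cleaves denatured collagens and the type IV collagen of basement membranes. The gene lies on chr2:164940780-164955850 (GRCm38, plus strand). It had 190.3 and 202 CPM in KO clone 1 and 905 and 777 CPM in KO clone 2, against 17.4 and 21.0 CPM in WT. The 3 groups did not overlap, and KO clone 2 stood above KO clone 1 and KO clone 1 above WT in every library. The log2 fold change was 3.35 in KO clone 1 (SE 0.14, adjusted p = 1.33e-09 by edgeR, 10.2-fold) and 5.45 in KO clone 2 (SE 0.15, adjusted p = 3.20e-11, 43.6-fold). KO clone 2 exceeded KO clone 1 by 2.10 on the log2 scale (SE 0.13, adjusted p = 3.45e-07). The 6 nearest tested genes around Mmp9 had log2 fold changes of -0.68 to 1.26 for the mean of both clones. Of these 6 neighbours 4 were called higher, 1 lower and 1 not called, where 26.5% of all genes were called higher and 29.3% lower. The lowest, Cd40, a receptor gene of the TNF receptor family 99.8 kb away, parted the clones, with -2.23 in KO clone 1 (adjusted p = 0.000153 by edgeR), 0.87 in KO clone 2 (adjusted p = 0.0126) and 3.10 between KO clone 2 and KO clone 1 (adjusted p = 2.84e-05). The nearest tested gene on the far side, Slc12a5, a chloride cotransporter gene 5 kb away, changed by 0.85 (adjusted p = 0.00818), and Pcif1, an RNA cap methyltransferase gene, by 1.26 (adjusted p = 2.29e-06). The median log2 fold change over chromosome 2 was 0.26 in KO clone 1 and 0.29 in KO clone 2, and with each chromosome's median removed Mmp9 still differed by 3.09 and 5.16.

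Mmp10 encodes stromelysin 2, which cleaves proteoglycans, laminin and fibronectin and activates other proMMPs. The gene lies on chr9:7502352-7510240 (plus strand), and its counts may carry some uncertainty because 8.37% of its 50-base stretches also occur in Mmp3. It had 7.23 and 11.9 CPM in KO clone 1 and 52.0 and 46.7 CPM in KO clone 2, against 1.58 and 1.77 CPM in WT. As for Mmp9, the groups did not overlap and were ordered KO clone 2, KO clone 1, WT from high to low. The log2 fold change was 2.49 in KO clone 1 (SE 0.25, adjusted p = 3.47e-06 by edgeR, 5.64-fold) and 4.86 in KO clone 2 (SE 0.25, adjusted p = 7.57e-09, 29.0-fold), and KO clone 2 exceeded KO clone 1 by 2.37 (SE 0.19, adjusted p = 6.85e-06).

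Mmp3 encodes stromelysin 1, an enzyme with substrates much like those of stromelysin 2 and an activator of proMMP9. The gene lies on chr9:7445822-7455975 (plus strand), 46377 bases before Mmp10, with 8.39% of its 50-base stretches shared with other genes, Mmp10 among them. It had 9.78 and 13.6 CPM in KO clone 1 and 88.9 and 79.3 CPM in KO clone 2, against 9.86 and 13.3 CPM in WT. The KO clone 1 and WT libraries overlapped, and the KO clone 2 libraries stood apart above both. In KO clone 2 the log2 fold change was 2.84 (SE 0.18, adjusted p = 4.65e-08 by edgeR, 7.17-fold), and in KO clone 1 it was -0.00 with a 95% interval of -0.39 to 0.38 (adjusted p = 0.986). KO clone 2 exceeded KO clone 1 by 2.85 (SE 0.18, adjusted p = 3.78e-07).

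Mmp13 encodes collagenase 3, which cuts fibrillar collagens, and it stands at the start of the same cluster, on chr9:7272514-7283331 (plus strand). It was a rare transcript, with 27 and 22 reads in KO clone 1 and 75 and 102 reads in KO clone 2, against 1 and 5 reads in WT. In CPM these were 1.19 and 0.989 in KO clone 1 and 4.42 and 4.40 in KO clone 2, against 0.0986 and 0.295 in WT. The order of the groups was that of Mmp9 and Mmp10, with no overlap. The log2 fold change was 2.27 in KO clone 1 (SE 0.48, adjusted p = 0.00139 by edgeR) and 4.28 in KO clone 2 (SE 0.39, adjusted p = 1.06e-06), with KO clone 2 above KO clone 1 by 2.01 (SE 0.26, adjusted p = 0.000205). Mmp13 passed the filter on low counts through the knockout libraries, and 1 library weighs on its size: without WT replicate 2 the values were 3.38 in KO clone 1 and 5.40 in KO clone 2.

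**Figure D2:**
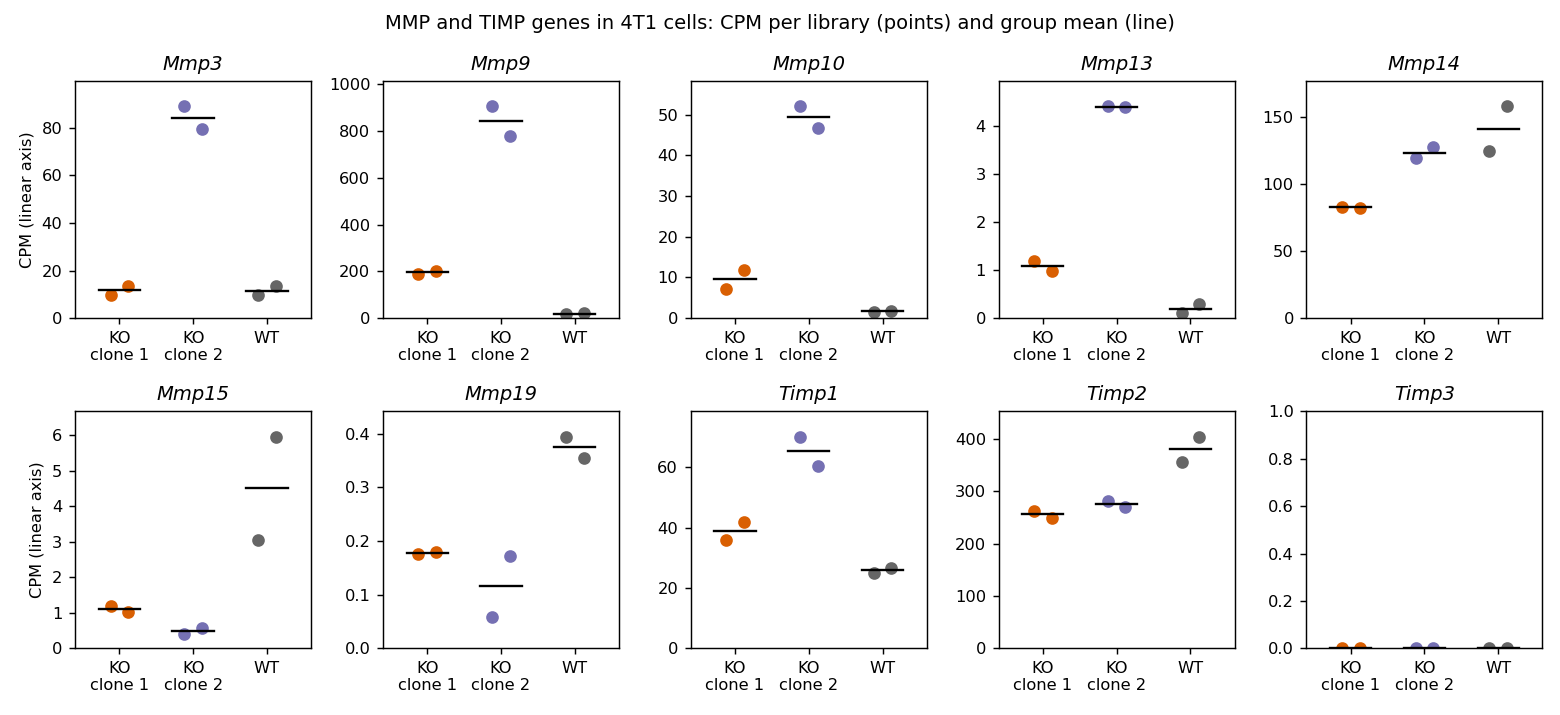
Level of each of the 10 genes in CPM (linear axes that differ between panels) in the 2 libraries of KO clone 1, KO clone 2 and WT; points are libraries and lines are group means. Mmp9, Mmp10 and Mmp13 step down from KO clone 2 (means 841, 49.4 and 4.41 CPM) to KO clone 1 (196, 9.57 and 1.09 CPM) and WT (19.2, 1.67 and 0.197 CPM), whereas Mmp14, Mmp15 and Timp2 have their highest means in WT.

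Mmp14 encodes the membrane-type enzyme MT1-MMP, a collagenase at the cell surface that activates proMMP2. The gene lies on chr14:54431612-54445364 (plus strand). It had 83.0 and 82.5 CPM in KO clone 1 and 119 and 128 CPM in KO clone 2, against 125 and 158 CPM in WT. KO clone 1 lay below both other groups without overlap, and KO clone 2 overlapped WT. Mmp14 fell in KO clone 1 by 0.77 on the log2 scale (SE 0.13, adjusted p = 0.000227 by edgeR, 1.71-fold). In KO clone 2 the log2 fold change was -0.19 with a 95% interval of -0.47 to 0.08 (adjusted p = 0.211), and without WT replicate 1 it was -0.34 and called (adjusted p = 0.022). KO clone 2 exceeded KO clone 1 by 0.58 (SE 0.13, adjusted p = 0.00678), a call lost without any 1 of the 4 knockout libraries (adjusted p = 0.0587 to 0.0658). It was lost as well with chromosome medians removed (0.25, adjusted p = 0.187). The median over chromosome 14 was -0.25 in KO clone 1 and 0.08 in KO clone 2.

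Mmp15, on chr8:95352268-95375080 (plus strand), encodes another membrane-type enzyme, MT2-MMP. It had 27 and 23 reads in KO clone 1 and 7 and 13 reads in KO clone 2, against 31 and 101 reads in WT. In CPM these were 1.19 and 1.03 in KO clone 1 and 0.412 and 0.561 in KO clone 2, against 3.06 and 5.96 in WT. No groups overlapped, although the WT libraries differed from each other by a factor of 1.95. Mmp15 fell, with a log2 fold change of -2.07 in KO clone 1 (SE 0.32, adjusted p = 0.000144 by edgeR) and -3.22 in KO clone 2 (SE 0.37, adjusted p = 1.07e-05). Without WT replicate 2 both calls held, at -1.45 in KO clone 1 and -2.60 in KO clone 2. The median over chromosome 8 lay the other way, at 0.28 in KO clone 1 and 0.39 in KO clone 2. The difference of KO clone 2 from KO clone 1 was -1.15 with a 95% interval of -2.09 to -0.21 and was not called (adjusted p = 0.0734), but was called in a fit of these clones alone (adjusted p = 0.0267) and without WT replicate 1 (adjusted p = 0.0245) or replicate 2 (adjusted p = 0.0281).

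Mmp19, on chr10:128790910-128800824 (plus strand), encodes a secreted basement-membrane protease and was near the limit of detection. It had 4 and 4 reads in KO clone 1 and 1 and 4 reads in KO clone 2, against 4 and 6 reads in WT, and was not tested. It shares 789 exon bases with Tmem198b on the opposite strand, which held 95.1% of the reads over the gene, and the part of misassigned strands in its few reads was not tested. In CPM it had 0.176 and 0.180 in KO clone 1 and 0.0589 and 0.173 in KO clone 2, against 0.395 and 0.354 in WT.

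Timp1 encodes the secreted inhibitor that forms a complex with proMMP9, and lies on chrX:20870166-20874735 (plus strand) within an intron of Syn1 on the other strand. It had 35.7 and 41.9 CPM in KO clone 1 and 70.1 and 60.3 CPM in KO clone 2, against 24.95 and 26.7 CPM in WT. The groups were ordered as for Mmp9 and did not overlap, with much smaller steps. Timp1 rose by 0.59 on the log2 scale in KO clone 1 (SE 0.13, adjusted p = 0.00236 by edgeR, 1.502-fold) and by 1.33 in KO clone 2 (SE 0.13, adjusted p = 2.73e-06, 2.52-fold). KO clone 2 exceeded KO clone 1 by 0.75 (SE 0.13, adjusted p = 0.00183), but leaving out KO clone 2 replicate 1 ended that call (0.64, adjusted p = 0.0513).

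Timp2 encodes the inhibitor that works with MT1-MMP at the cell surface, and lies on chr11:118301069-118355740 (minus strand). It had 262 and 249 CPM in KO clone 1 and 281 and 269.8 CPM in KO clone 2, against 356 and 404 CPM in WT. Each knockout library was below each WT library. Timp2 fell by 0.57 on the log2 scale in KO clone 1 (SE 0.11, adjusted p = 0.000877 by edgeR) and by 0.46 in KO clone 2 (SE 0.11, adjusted p = 0.00338). Between KO clone 2 and KO clone 1 the difference was 0.11 with a 95% interval of -0.13 to 0.35 (adjusted p = 0.517). In a test for changes of more than 1.5-fold, the calls of Timp2 in both clones and of Mmp14 and Timp1 in KO clone 1 were lost.

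Timp3, on chr10:86300372-86349506 (plus strand), encodes the inhibitor that binds to the matrix itself. It had 0 reads on its own strand in each of the 6 libraries. A count of 0 allows a level of up to 0.130 to 0.296 CPM (3 counts, per library, counting error only), so Timp3 was not detectable at this depth in any group.

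Levels of different genes were compared per kilobase (kb) of annotated exon, taken over all annotated transcripts of a gene together. Mmp14 has 7 such transcripts, and Mmp3 and Mmp10 have 1 each. Which transcripts the cells made was not tested, so a gene with several may be set too low. In KO clone 1 the order was Timp2 at 65.6 ± 2.40 CPM per kb, Mmp9 at 55.4 ± 2.27, Timp1 at 43.7 ± 4.94 and Mmp14 at 13.9 ± 0.0641 (SD, n = 2), followed by Mmp3 and Mmp10, whose libraries overlapped at means of 6.49 and 5.56. In KO clone 2 Mmp9 came first at 238 ± 25.4 CPM per kb, ahead of Timp1 at 73.4 ± 7.75 and Timp2 at 70.7 ± 2.00, whose libraries overlapped. Mmp3 at 46.7, Mmp10 at 28.7 and Mmp14 at 20.7 CPM per kb followed in KO clone 2. In WT the order was Timp2 at 97.5 ± 8.72 CPM per kb, Timp1 at 29.1 ± 1.38 and Mmp14 at 23.7 ± 3.95, with Mmp3 at 6.44 and Mmp9 at 5.42 overlapping below them. Mmp14 was thus the most abundant MMP member in WT, and Mmp9 in each clone.

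The 7 MMP members together reached 78.0 and 85.9 CPM per kb in KO clone 1 and 357 and 314 CPM per kb in KO clone 2, against 32.9 and 42.2 CPM per kb in WT. The 3 TIMP members together gave 107.5 and 111 CPM per kb in KO clone 1 and 151 and 137 CPM per kb in KO clone 2, against 119 and 134 CPM per kb in WT. The summed TIMP level of KO clone 2 was thus above that of WT, and that of KO clone 1 below it, with Timp1 higher and Timp2 lower in both clones. The ratio of the MMP sum to the TIMP sum was 0.726 and 0.773 in KO clone 1 and 2.36 and 2.29 in KO clone 2, against 0.276 and 0.315 in WT. The groups did not overlap. This ratio is a description of RNA levels, with no test. It covers the listed members only, and MMP genes outside the sum went both ways. Of the 5 tested, 2 were called higher and 3 lower for the mean of both clones, where 26.5% and 29.3% of all genes were. Mmp11 averaged 11.4 CPM in KO clone 1 and 13.2 CPM in KO clone 2, against 33.4 CPM in WT. Mmp24 averaged 4.29 CPM in KO clone 1 and 8.83 CPM in KO clone 2, against 1.54 CPM in WT.

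Mmp9 made up 67.6% ± 1.81 of the MMP sum in KO clone 1 and 70.8% ± 1.18 in KO clone 2, against 14.5% ± 0.582 in WT (SD, n = 2 each). Mmp14 made up 16.97% ± 1.23 in KO clone 1 and 6.22% ± 0.870 in KO clone 2, against 63.2% ± 0.497 in WT. Without Mmp9 the ratio of MMP to TIMP sums averaged 0.243 ± 0.0243 in KO clone 1 and 0.679 ± 0.0120 in KO clone 2, against 0.253 ± 0.0258 in WT, so that KO clone 1 overlapped WT and KO clone 2 did not. The ratio of Mmp9 to Timp1 averaged 1.27 in KO clone 1 and 3.24 in KO clone 2, against 0.186 in WT. The ratio of Mmp14 to Timp2 moved less and averaged 0.212 in KO clone 1 and 0.294 in KO clone 2, against 0.242 in WT. Among the stromelysins Mmp3 stood above Mmp10 in every library, at 1.19 times the level of Mmp10 in KO clone 1 and 1.63 times in KO clone 2, against 6.59 times in WT.

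**Figure D3:**
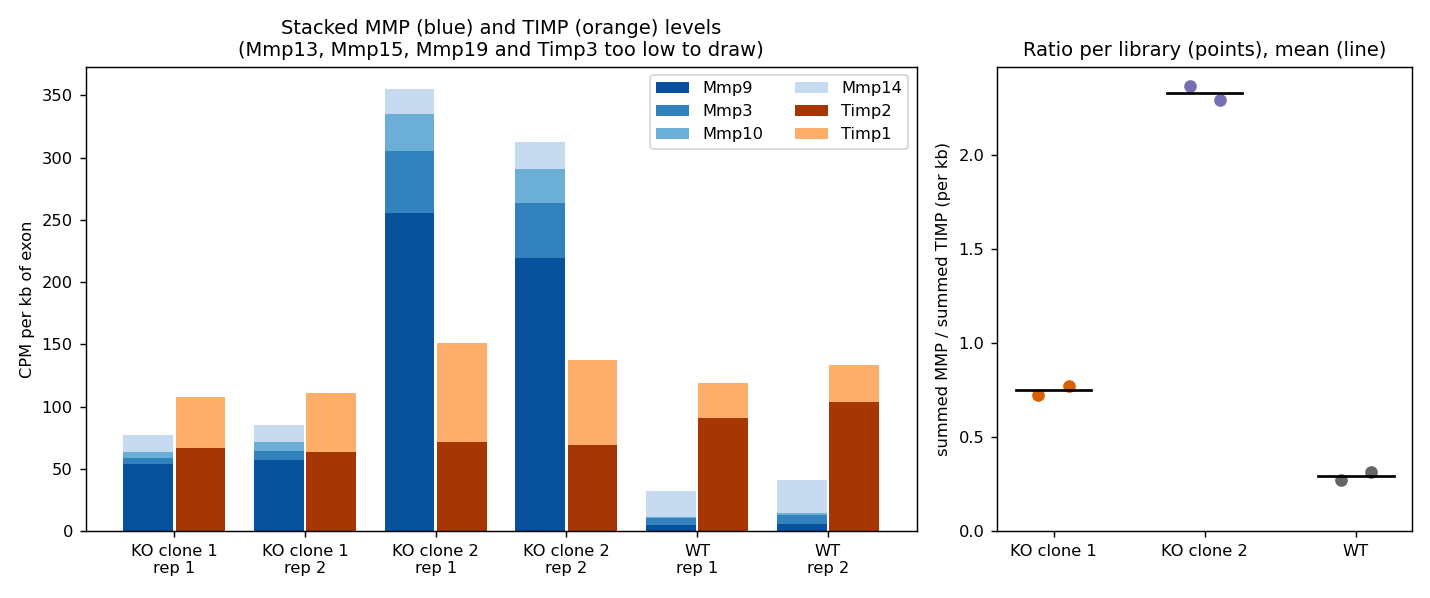
Left, stacked levels of the more abundant MMP (blue) and TIMP (orange-brown) genes in CPM per kb of exon in each library, with Mmp13, Mmp15, Mmp19 and Timp3 too low to be drawn; right, the ratio of the summed MMP to the summed TIMP level per library (points) with group means (lines). The ratio averages 0.749 in KO clone 1 and 2.33 in KO clone 2, against 0.296 in WT, and the dark blue Mmp9 segment is the largest part of the MMP stack in each knockout library.

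A further 17 family genes were looked up, and 7 of the 16 other MMP genes and Timp4 had no read in any library. Of the 5 other MMP genes tested, 2 were called higher and 3 lower for the mean of both clones against WT, with a median log2 fold change of -1.34, where 26.5% of all genes were called higher and 29.3% lower. Mmp1b passed the filter on low counts only through the knockout libraries, and Mmp23 and Mmp28 only through WT, so the count over these 5 genes is no support for a direction. Mmp11, the stromelysin 3 gene, fell to 11.4 ± 1.35 CPM in KO clone 1 and 13.2 ± 1.45 CPM in KO clone 2, against 33.4 ± 4.90 CPM in WT (log2 fold change of the mean -1.45, adjusted p = 7.7e-07 by edgeR). Mmp23 fell by 2.92 (adjusted p = 9.88e-05) and Mmp28 by 1.34 (adjusted p = 0.0175), both at under 1.5 CPM in every library, and Mmp28 was not called in KO clone 1 (adjusted p = 0.0628). Mmp24, which encodes the membrane-type enzyme MT5-MMP, averaged 4.29 CPM in KO clone 1 and 8.83 CPM in KO clone 2, against 1.54 CPM in WT (log2 fold change 1.94, adjusted p = 7.6e-06). Of the reads over Mmp24, 85.7% lay on the opposite strand, and the part of misassigned strands in its count was not tested. Mmp2, the gelatinase A gene and the main substrate of MT1-MMP activation, had 1 read in all 6 libraries.

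The chromosome 9 cluster spans 10 MMP genes over 427.1 kb, and 6 of them had reads. Besides Mmp3, Mmp10 and Mmp13, the gene Mmp1b had 10 and 17 reads in KO clone 1 and 20 and 20 reads in KO clone 2, against 0 reads in both WT libraries. Set against a floor of 3 counts over the WT group (0.111 CPM), this was at least 5.44-fold higher in KO clone 1 and at least 9.21-fold higher in KO clone 2. Mmp1a, not tested, had 1 and 3 reads in KO clone 1 and 5 and 13 reads in KO clone 2, against 0 reads in WT, and Mmp12 had 14 reads in all. The genes Mmp8, Mmp27, Mmp20 and Mmp7, at the other end of the cluster, had no read. Around the cluster, 2 of the 6 nearest tested genes were higher, 2 lower and 2 not called for the mean of both clones. Over all genes 26.5% were called higher and 29.3% lower. Casp12, a caspase gene 1899.5 kb before the cluster and 1 of the 2 lower, passed the filter on low counts only through WT. It had 1 and 0 reads in KO clone 1 and 0 and 0 reads in KO clone 2, against 20 and 48 reads in WT (adjusted p = 2.42e-07 by edgeR). Dync2h1, a dynein heavy chain gene 88.1 kb before it, rose by 1.21 (adjusted p = 4.42e-05 by edgeR), and Birc3, an inhibitor of apoptosis gene 149.1 kb behind it, fell by 1.58 (adjusted p = 2.18e-06). Tmem123, 64.5 kb behind it, had a log2 fold change of 0.00 (adjusted p = 0.993). The median over chromosome 9 was -0.12 in KO clone 1 and -0.14 in KO clone 2.

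**Figure D4:**
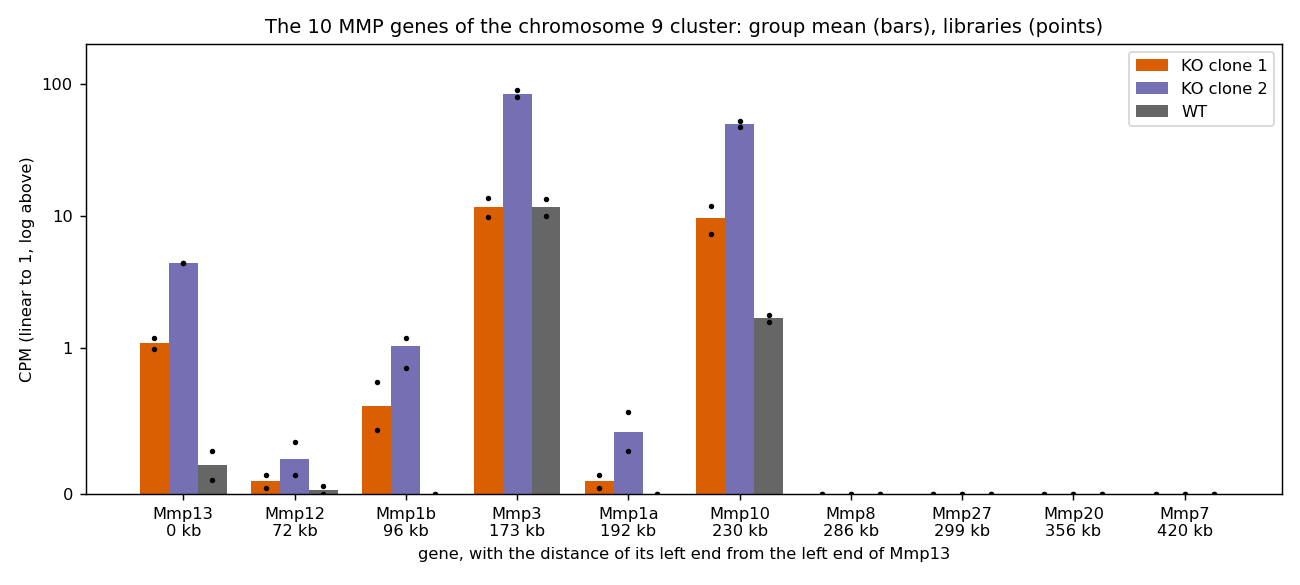
Level in CPM (linear to 1, log above) of the 10 MMP genes of the chromosome 9 cluster in their order along the chromosome, with the distance of each gene from Mmp13 in kb; bars are group means of KO clone 1, KO clone 2 and WT and points are libraries. Mmp3 is the highest of the cluster in every group (11.7, 84.1 and 11.6 CPM), and the 4 genes from Mmp8 to Mmp7 have no read.

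Among 8946 tested genes with an ordinary symbol and an average log2 CPM of at least 3, the ones nearest to Mmp9, Mmp10 and Timp1 were found by Euclidean distance over the 6 libraries, on log2(CPM + 0.1) values centred on the WT mean. Mmp9 was nearest to Rgs16, a regulator of G-protein signalling (distance 1.45), to Mmp10 (1.69) and to the laminin chain gene Lama3 (2.70). Mmp10 was nearer still to Rgs16 (0.447), followed by Mmp9 (1.69) and the cytokine gene Il24 (1.73). Rgs16 had 25.9 and 42.5 CPM in KO clone 1 and 204 and 187 CPM in KO clone 2, against 6.21 and 5.43 CPM in WT. Timp1 was nearest to Ada (0.152), Galk1 (0.225) and Farsa (0.236), genes of adenosine deaminase, galactokinase and a tRNA synthetase subunit. The 6 points share their libraries and depth, and the distances are descriptions.

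Genes of MMP activation, docking and inhibition went both ways. Of 17 tested among 23, 9 were called higher and 6 lower for the mean of both clones against WT, where 26.5% of all genes were called higher and 29.3% lower (median log2 fold change 0.52, against -0.02 over all genes). In KO clone 1 alone 8 were called higher and 6 lower with a median of 0.02, where 24.5% of all genes were called higher and 26% lower. In KO clone 2 alone 10 were called higher and 5 lower with a median of 0.65, where 25.2% of all genes were called higher and 27.9% lower. For this and the following gene groups, changes are log2 fold changes of the mean of both clones. Cd44, a hyaluronan receptor that holds MMP9 at the cell surface, averaged 432 CPM in KO clone 1 and 421 CPM in KO clone 2, against 151 CPM in WT (1.503, adjusted p = 2.08e-07 by edgeR). The collagen receptor subunit Itga2 rose by 1.81 (adjusted p = 1.44e-08), and the syndecans Sdc1 and Sdc4 by 1.31 (adjusted p = 1.08e-06) and 0.81 (adjusted p = 1.99e-05). The membrane-anchored MMP inhibitor Reck went the other way, at 2.11 CPM in KO clone 1 and 1.83 CPM in KO clone 2, against 3.59 CPM in WT (-0.90, adjusted p = 0.00418). So did Lrp1, a scavenger receptor that takes up MMP9 and TIMP complexes, at 55.5 CPM in KO clone 1 and 58.1 CPM in KO clone 2, against 137 CPM in WT (-1.27, adjusted p = 0.00126). Cd63, a tetraspanin that binds TIMP1, fell by 0.55 (adjusted p = 0.00108). Caveolin 1 (Cav1) fell for the mean by 0.51 (adjusted p = 0.00127), with 52.6 CPM in KO clone 1 and 25.3 CPM in KO clone 2, against 52.0 CPM in WT. The proprotein convertase Pcsk6 fell by 0.67 (adjusted p = 0.0259), with -0.09 in KO clone 1 (adjusted p = 0.796) and -1.26 in KO clone 2 (adjusted p = 0.00227). Another, Pcsk7, fell by 0.45 (adjusted p = 0.00278), with -0.68 in KO clone 1 (adjusted p = 0.000574) and -0.23 in KO clone 2 (adjusted p = 0.145). Lcn2, whose product lipocalin 2 forms a complex with MMP9 in human cells and which was chosen here after its values were seen, parted the clones: it had 3.31 and 2.65 CPM in KO clone 1 and 98.6 and 85.8 CPM in KO clone 2, against 7.10 and 10.5 CPM in WT. Its log2 fold change was -1.58 in KO clone 1 (adjusted p = 2.09e-05) and 3.37 in KO clone 2 (adjusted p = 1.08e-08), and KO clone 2 exceeded KO clone 1 by 4.95 (adjusted p = 4.47e-09).

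Other metalloproteases that TIMPs bind were mixed, with 5 of 11 tested called higher and 2 lower (median 0.04), against the same 26.5% and 29.3% of all genes. Adam12, a disintegrin metalloprotease, averaged 58.2 CPM in KO clone 1 and 65.5 CPM in KO clone 2, against 6.39 CPM in WT (3.28, adjusted p = 5.13e-10 by edgeR). Adam19 rose by 1.64 (adjusted p = 2.8e-06) and the procollagen proteinase Bmp1 by 0.79 (adjusted p = 6.41e-05). The sheddase Adam10 fell by 0.63 (adjusted p = 0.000171), and the proteoglycan-cleaving Adamts9, which passed the filter only through WT, was called lower with 0 reads in KO clone 1 and 0.0589 and 0.0432 CPM in KO clone 2, against 2.07 and 2.01 CPM in WT.

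The plasminogen system, a proteolytic cascade that activates several proMMPs, had 6 of 8 genes tested, 4 called higher and 2 lower (median 0.96), against 26.5% and 29.3% of all genes. Plau, the urokinase gene, averaged 222 CPM in KO clone 1 and 384 CPM in KO clone 2, against 86.4 CPM in WT (1.75, adjusted p = 5.38e-08 by edgeR). Serpinb2, a urokinase inhibitor gene that passed the filter only through the knockout libraries, was called higher by 2.98 (adjusted p = 3.62e-05 by edgeR). It had 20 and 32 reads in KO clone 1 and 62 and 90 reads in KO clone 2, against 3 and 4 reads in WT. Serpine2, which inhibits thrombin and urokinase and passed the filter only through WT, was at 0.111 CPM in KO clone 1 and 0.336 CPM in KO clone 2, against 12.7 CPM in WT (-6.01, adjusted p = 2.94e-10). Plat, the tissue plasminogen activator gene, fell by 1.21 (adjusted p = 5.45e-05), and Plg itself had no read.

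Of the matrix proteins that MMPs cut, 19 of 26 were tested, with 12 called higher and 5 lower (median 0.85), against 26.5% and 29.3% of all genes. Lama3 averaged 267 CPM in KO clone 1 and 420 CPM in KO clone 2, against 34.6 CPM in WT (3.27, adjusted p = 9.73e-11 by edgeR), and the matrix glycoprotein Tnc 18.5 CPM in KO clone 1 and 9.97 CPM in KO clone 2, against 0.867 CPM in WT (3.93, adjusted p = 1.01e-08). Sparc, a collagen-binding matrix protein, averaged 21.2 CPM in KO clone 1 and 49.8 CPM in KO clone 2, against 154 CPM in WT (-2.24, adjusted p = 7.83e-10). Thbs1, the thrombospondin 1 gene, averaged 275 CPM in KO clone 1 and 222 CPM in KO clone 2, against 863 CPM in WT (-1.80, adjusted p = 2.56e-08). The type IV collagen chains Col4a5 and Col4a6 fell by 1.94 (adjusted p = 2.56e-07) and 1.19 (adjusted p = 0.00731, and not called in KO clone 1, adjusted p = 0.053). The basement membrane linker Nid1, which passed the filter on low counts through WT, was called lower by 2.43 (adjusted p = 9.48e-05 by edgeR). It had 6 and 3 reads in KO clone 1 and 8 and 14 reads in KO clone 2, against 13 and 37 reads in WT.

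The list of AP-1 and ETS transcription factors, the families whose letters were searched in the promoters, also held Runx2, which belongs to neither. Of its 14 genes 14 were tested, with 8 called higher and 3 lower (median 0.71), against 26.5% and 29.3% of all genes. Runx2 was among those called higher (0.68, adjusted p = 0.0006 by edgeR), so these counts are not of the AP-1 and ETS families alone. Fosl1, an AP-1 subunit, averaged 62.0 CPM in KO clone 1 and 89.0 CPM in KO clone 2, against 13.0 CPM in WT (2.51, adjusted p = 3.22e-09 by edgeR). The AP-1 subunit Junb averaged 479 CPM in KO clone 1 and 588 CPM in KO clone 2, against 208 CPM in WT (1.35, adjusted p = 3.95e-07). The ETS factors Etv4 and Etv5 rose by 2.07 (adjusted p = 1.17e-08) and 2.12 (adjusted p = 8.14e-09). Fosl2 fell by 0.72 (adjusted p = 3.32e-05) and the epithelial ETS factor Elf3 by 1.21 (adjusted p = 3.39e-06). Jun fell by 0.33 for the mean (adjusted p = 0.0244), with -0.06 in KO clone 1 (adjusted p = 0.737), -0.60 in KO clone 2 (adjusted p = 0.00191) and a called difference between KO clone 2 and KO clone 1 (-0.55, adjusted p = 0.0119). Whether any of these factors acts on the MMP or TIMP genes was not tested.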

How the data were processed

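Total RNA depleted of ribosomal RNA was sequenced from 6 libraries of 4T1 cells in 3 groups of 2. Per the labels' protocols the libraries were made with a stranded kit, and per the submitters' processing notes FastQC and STAR 2.6.0c were used with GRCm38. The authors deposited raw counts of reads per gene, not normalized, with unstranded, forward and reverse columns. The reverse column held 92.3% to 95.7% of the stranded gene reads and was used. Rows that name no gene (46.9% to 56.8% of reads) entered neither library sizes nor tests. GENCODE M21 matched 54079 of 54146 IDs.

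The counts were tested in R 4.3.3 with edgeR 4.0.16: filterByExpr (13755 of 26172 genes with reads, holding 99.9% of gene reads), TMM, and a robust quasi-likelihood fit (glmQLFit with legacy set to FALSE) with 1 term per group on all 6 libraries, 3 residual degrees of freedom and a common biological coefficient of variation of 10.3%. P-values were Benjamini-Hochberg adjusted over all genes tested and called under 0.05 in 4 comparisons. Chi-square per degree of freedom between the libraries of a group was 17.7 in KO clone 1, 25 in KO clone 2 and 78.8 in WT, above sampling noise. The WT libraries thus differed most. The fit takes 1 spread for all groups, so p-values against WT rest on the closer clone libraries as well. The fit was tested on simulated counts. CPM used TMM-scaled totals, and levels between genes were divided by annotated exon length. The members and gene lists were chosen with earlier results of these data known. All members were named, with up to 4 genes per list by smallest adjusted p of the mean contrast and any called against their list's majority. For 1 gene chosen in this way, values are not reported here. Alternatives were DESeq2 1.42.0 size factors and Wald test, limma-voom (limma 3.58.1), upper-quartile scaling, library totals without TMM, other count filters, unstranded counts, a minimum change of 1.5-fold, chromosome medians removed, a fit restricted to the compared groups, a replicate block, and the removal of each library in turn. The legacy quasi-likelihood fit was added after seeing the data.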

Additional observations from a re-analysis of the deposited data

Results flagged for a closer look

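For 6 members the change against WT differed between the clones in a direct test of KO clone 2 against KO clone 1 by edgeR. KO clone 2 exceeded KO clone 1 by a log2 fold change of 2.85 for Mmp3, 2.10 for Mmp9, 2.37 for Mmp10, 2.01 for Mmp13, 0.58 for Mmp14 and 0.75 for Timp1, in both libraries of each clone and with adjusted p of 3.78e-07, 3.45e-07, 6.85e-06, 0.000205, 0.00678 and 0.00183. In the same comparison 22% of all genes tested were called.

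Reads on the strand opposite to a gene entered no main comparison, only the alternative with unstranded counts. For 2 members they were more frequent in each of the 4 knockout libraries than in either WT library. How many of all genes show this was not counted, so the 2 members are no result about the family. Over Mmp9 the opposite reads averaged 0.617 CPM in the knockout libraries, with no read in WT, and made up 0.122% of the reads on both strands. Its sense reads were also lowest in WT, at 196 CPM in KO clone 1 and 841 CPM in KO clone 2, against 19.2 CPM in WT. Whether the opposite reads only follow the sense level was not tested. Over Mmp14 they averaged 1.42 CPM in the knockout libraries, against 0.620 CPM in WT, and made up 1.09% of the reads on both strands.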

How the results depend on the processing

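No member changed the direction of a called change under any alternative tried. Of 568 comparisons of a member's log2 fold change with an alternative, 550 stayed on the same side of the threshold, 14 lost a call and 4 gained one. In a test for changes of more than 1.5-fold, members called in KO clone 1 against WT numbered 4, and genes called numbered 2684 in KO clone 1, 3032 in KO clone 2, 2870 for the mean of both clones and 344 between the clones. That test also lost Mmp14 and Timp2 for the mean of both clones, and Mmp14 and Timp1 between the clones. With each library left out in turn, members called were 7 to 7 in KO clone 1, 7 to 8 in KO clone 2, 8 to 8 for the mean and 4 to 7 between the clones; genes called were 4997 to 6978, 5632 to 7087, 6762 to 7294 and 625 to 4445 in the same order, with the spread of a lone library taken from the other groups. The lowest count between the clones, 625, came without KO clone 2 replicate 1, and the counts were 1208, 985 and 1711 without KO clone 1 replicate 1, KO clone 1 replicate 2 and KO clone 2 replicate 2.

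Replicate numbers did not pair the libraries (correlations of deviations -0.136, 0.0809 and 0.0134). With the replicate block, members called were 7, 7, 8 and 6 and genes called 6566, 7028, 7389 and 2566 in KO clone 1, KO clone 2, the mean and between the clones, and no member's call changed. The MMP to TIMP ratios moved by less than the SD between libraries with unstranded counts, and scaling by library totals cannot move a ratio within a library. Of the members' levels per kb in each group, 9 moved by more than that SD with unstranded counts and 21 did not, and 2 moved with library totals and 28 did not. Low counts limit Mmp13, Mmp15, Mmp19 and Timp3.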
